A study of Homo sapiens with 44 samples.

Results

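Mut rescue cells were compared with unedited WT cells over every gene of the deposited RNA table of the GAS41 experiment. The comparison uses 6 of the 44 samples of the series, 3 libraries of each group. Its groups are set by the names of the table's columns and not by any measured value. Earlier results of these data were known when it was chosen. The table lists 18797 genes, of which 14505 had at least 10 reads in at least 3 libraries and were tested. All cells are HCT116, an established human colon cancer line, in its p53+/+ form. WT cells were not edited. Mut rescue cells are GAS41 knockout cells that stably express GAS41 with a GFP and Flag tag and the changes Y74A and W93A (tyrosine 74 and tryptophan 93 to alanine, counted along the protein). In the same table, 3 libraries come from the knockout cells without a transgene (GAS41-KO) and 3 from knockout cells with tagged normal GAS41 (wt rescue). Their values are given beside the main comparison for some of the genes and lists. Per the labels, 3 biological replicates were made per group, poly-A RNA was selected and a BGISEQ-500 was used. The promoter of the transgenes and the number of clones and separate cultures are not given in the sources used here. Should a group's replicates share a culture, its p-values would measure only the spread between these samples, which may be technical.

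GAS41 is the protein made by YEATS4. Its YEATS domain holds acylated lysines of histone H3, such as acetyl-lysine and crotonyl-lysine, in a pocket lined by aromatic residues, and the changed tyrosine and tryptophan belong to that pocket. GAS41 is also a subunit of TIP60, which acetylates histones, and of SRCAP, which places the histone variant H2A.Z in chromatin. The series asks how GAS41 acts in transcriptional repression and in the reading of crotonylated histone H3. A mutant that cannot hold acylated lysine but is still made would separate the loss of reading from the loss of the protein. Neither the binding nor the protein amount of the mutant is measured in these RNA data. WT cells carry no transgene, so mut rescue differs from WT by the edit, by the tagged mutant protein and by the amount of YEATS4 RNA at once.

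Levels are normalized reads, that is reads divided by the size factor of the library, and changes are differences of the deposited log2 values unless a fold is named. This log2 scale is compressed at few reads, because a gene must reach 39.1 normalized reads to stand 1 log2 above a gene with none, so the log2 change of a weakly expressed gene is smaller than its fold. A gene is said to rise or fall where limma's adjusted p was under 0.05. Depth was 17851483 to 17926812 reads in the WT libraries and 16996857 to 17598276 in the mut rescue libraries. Replicates differed by more than sampling noise in every group, and the median coefficient of variation over tested genes was 5.23% in WT, 9.88% in mut rescue, 5.22% in GAS41-KO and 9.59% in wt rescue. Among mut rescue libraries, replicate 2 stood farthest from the others, with a chi-square per degree of freedom of 9.47 and 16.9 against replicates 1 and 3, where the latter gave 4.72 against each other. The wt rescue libraries listed 1353 to 1607 genes with no read, where the other 9 libraries listed 917 to 1055.

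Markers of HCT116 epithelium were present, with a summed level of 59020 to 62760 normalized reads in WT and 66280 to 80360 in mut rescue over 10 markers. KRT8, KRT18 and KRT20 of this list rose, while EPCAM, CDH1 and CLDN7 fell and the enterocyte markers VIL1 and LGALS4 stood at 2.01 normalized reads or fewer in every library. Of 11 blood and immune markers the table holds 6, summing to 196 to 215 in WT and 237 to 311 in mut rescue. Most of that was the lysosomal protein CD68, which rose, and PTPRC, the pan-leukocyte marker CD45, had no read in any of the 6 libraries. The 6 endothelial markers summed to 18.9 to 23.9 in WT and 25.1 to 28.9 in mut rescue, and the 3 fibroblast markers in the table to 270.2 to 308 and 262 to 335. Of these, COL3A1 rose from 0.955, 0.944 and 0 to 12, 3.99 and 8.05, a few reads beside those of COL1A1, which was not called. The part of these markers in the results was not tested.

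YEATS4 checks the labels. Its RNA stood at 625, 608 and 621 normalized reads in the WT libraries and at 2551, 2358 and 2538 in mut rescue, so the groups lay far apart. The rise was 4.01-fold (log2 change 1.78, SE 0.073, adjusted p = 1.11e-11 by limma, n = 3 and 3). GAS41-KO had 386, 337 and 325 and wt rescue 2887, 3499.5 and 3372 normalized reads. Reads of the transgene and of the edited gene are counted together under this name and cannot be told apart, so the level says how much YEATS4 RNA was made and nothing of the mutant sites. The neighbours of YEATS4 on 12q15 gave 1 rise and 5 falls among 11 tested genes, or 54.55% called, near the 46.3% of all tested genes. NUP107, a nuclear pore subunit, fell from 1662 ± 47.9 to 973 ± 43.4 (mean ± SD, n = 3). The 1 rise was that of MDM2, which encodes the ubiquitin ligase of p53, at 3472, 3113 and 3312 in WT and 3913, 3273 and 4787 in mut rescue. Its groups overlap, and its adjusted p of 0.0476 rose to as much as 0.268 with a library left out.

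Of the 14505 tested genes, 6718 differed between mut rescue and WT, or 46.3%. There were 3402 rises, 23.5% of tested genes, and 3316 falls, 22.9%. The median change over all tested genes was -2.2e-05, so the scaling placed the middle of the distribution at no change. Most changes were small: the median size of a called change was 0.33 log2, and 176 genes rose and 132 fell by 1 log2 or more. On the log2 scale of voom, which does not compress low levels in this way, 720 rose and 535 fell by that much, while the counts of called genes stayed within 1.5 times. Groups did not overlap in 56.0% of tested genes. Gene lists below are given by their counts and median change, to be read against these shares and the median near 0. The lists were chosen with earlier results of these data known, so their order by median only describes the lists chosen. In 14 of the 39 lists the median lay within 0.1 of 0, and leaving out single libraries moved those medians by up to 0.09 and changed the sign of 4 (heat shock chaperones, glycolysis and hypoxia, the MYC network and semaphorins). No other list's median changed sign. Genes called higher had a median level of 455 normalized reads and genes called lower 490.3, and all tested genes 418.

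**Figure D1:**
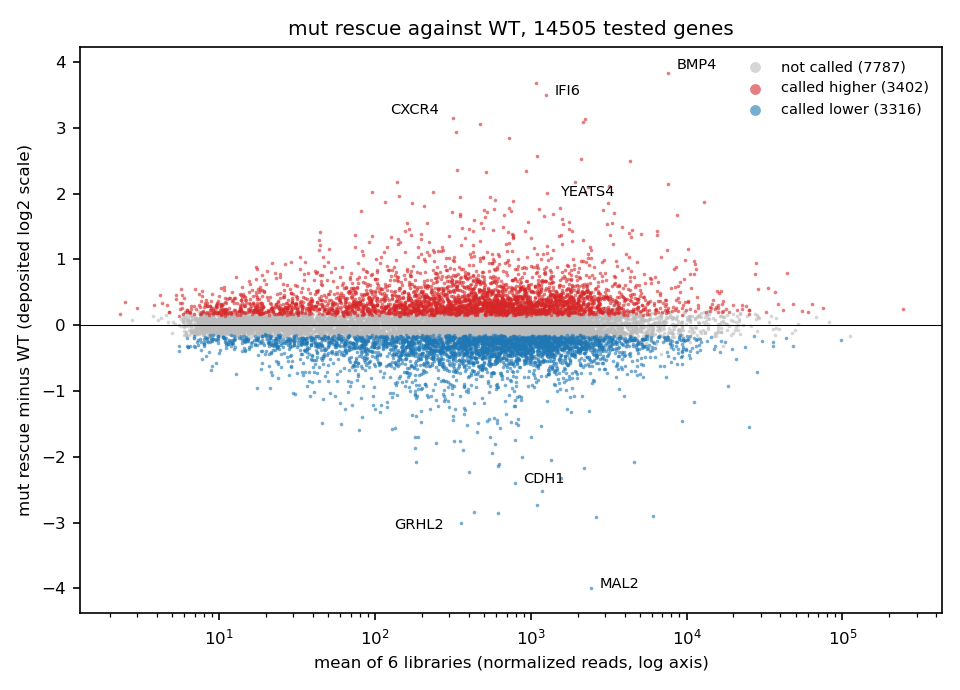
Change of each tested gene in mut rescue over WT (vertical axis, difference of deposited log2 values) against its mean level over the 6 libraries (horizontal axis, normalized reads, log axis). Red points are the 3402 genes called higher and blue points the 3316 called lower. Called genes lie on both sides of 0 in similar number, and BMP4 at 3.84 and MAL2 at -3.99 are among the points far from 0.

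The largest rises included those of secreted and surface signals and of interferon-induced genes. BMP4, a ligand of the TGF-beta family that patterns the gut, stood at 874, 861 and 861 normalized reads in WT and at 14100.0, 15649 and 13428 in mut rescue. This was a 16.6-fold rise (log2 change 3.84, SE 0.072, adjusted p = 1.49e-15). The chemokine receptor CXCR4, which guides cells toward CXCL12, was nearly silent in WT at 0, 0.944 and 4.74 and reached 678, 581 and 629 in mut rescue. ZBED2, a zinc finger factor known to oppose interferon signalling, went from 54.4, 51 and 60.7 to 2147, 2132 and 2064, a 38.2-fold rise. In each of these genes every mut rescue library stood above every WT library by a wide margin. In GAS41-KO, BMP4, CXCR4 and ZBED2 stood at 13621 ± 240, 513 ± 19.7 and 2346 ± 69.1, and mut rescue was not called against GAS41-KO in any of them. Wt rescue had 4285 ± 396.5, 8.17 ± 1.89 and 487 ± 56.7 in the same order and was called above WT in each.

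SEMA3A, a secreted guidance cue that repels axons, was at 335, 334 and 353 in WT and 4058, 3485 and 4334 in mut rescue (11.6-fold). TNFSF4, the T cell costimulatory ligand OX40L, went from 15.3, 17 and 32.3 to 965, 903 and 921. NEBL, an actin-binding nebulin relative, rose 12.1-fold to 4107 ± 368 and SAMD5 9.16-fold to 1985 ± 328. The stress kinase gene PLK2, a p53 target, rose 7.08-fold from 521 ± 7.82 to 3692 ± 187. The glucose importer gene SLC2A1 (GLUT1) went from 1199.7 ± 32.6 to 7484 ± 711, a 6.24-fold rise. Against GAS41-KO, SLC2A1 was higher in mut rescue, SEMA3A and TNFSF4 were lower, and NEBL, SAMD5 and PLK2 were not called. Wt rescue was called above WT in SEMA3A, TNFSF4, PLK2 and SLC2A1, below WT in NEBL and not called in SAMD5. RGS5, which dampens G protein signals and was chosen after its values were seen, rose from 90.2 ± 8.62 to 945 ± 73.8, while its level in GAS41-KO was 9533 ± 528.

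**Figure D2:**
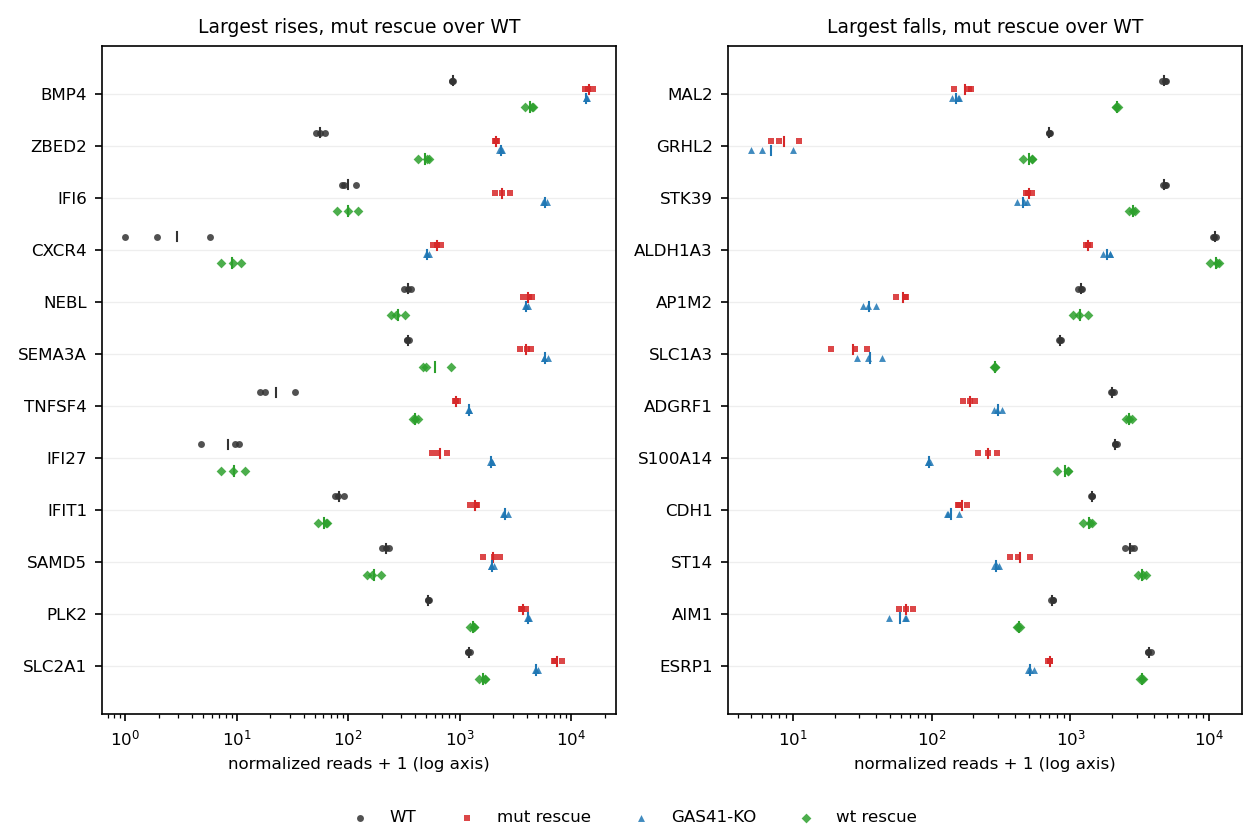
Normalized reads plus 1 (log axis) in each library for the 12 largest rises and the 12 largest falls of mut rescue over WT; points are libraries and short bars are group means. In every gene shown the 3 mut rescue libraries lie on one side of the 3 WT libraries. GRHL2 shows one extreme, with 10.1 normalized reads or fewer in every mut rescue and GAS41-KO library.

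The largest falls included genes of epithelial cells. GRHL2, the grainyhead factor that keeps epithelial genes on, stood at 710.3, 704 and 701 normalized reads in WT and at 5.98, 6.98 and 10.1 in mut rescue, a level 91.8-fold lower. MAL2, a membrane protein of apical transport, went from 4791, 4579 and 4841 to 190.5, 143 and 185, 27.4-fold lower (log2 change -3.99, SE 0.067, adjusted p = 8.64e-16). CDH1, the E-cadherin of adherens junctions, was at 1418, 1402 and 1436 in WT and 157, 155 and 179 in mut rescue. No WT and mut rescue library overlapped in these 3 genes, and none was called in mut rescue over GAS41-KO, with adjusted p of 0.632, 0.272 and 0.177. Wt rescue was called below WT in GRHL2 and MAL2, at 502 ± 42.4 and 2158 ± 44.9. In CDH1 it was not called, at 1350 ± 103.

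AP1M2, the clathrin adaptor subunit of basolateral sorting, fell from 1196, 1212 and 1135 to 62.8, 64.9 and 54.3, and SLC1A3, a glutamate and aspartate transporter, from 838 ± 14.9 to 26 ± 7.66. ESRP1, which directs epithelial splicing, fell from 3779, 3622 and 3642 to 711, 713 and 693. The membrane protease ST14 (matriptase) fell 6.28-fold to 430.0 ± 71.6, the retinaldehyde dehydrogenase ALDH1A3 8.15-fold to 1338 ± 41.8 and the kinase STK39 9.46-fold to 502 ± 24.8. S100A14, ADGRF1 and AIM1 also fell, by 8.3-fold, 10.7-fold and 11.4-fold. Against GAS41-KO, AP1M2, ESRP1, ST14 and S100A14 were higher in mut rescue and ALDH1A3 and ADGRF1 lower, while SLC1A3, STK39 and AIM1 were not called. Wt rescue was called below WT in SLC1A3, ESRP1, STK39, S100A14 and AIM1 and above WT in ST14 and ADGRF1. It was not called in AP1M2 and ALDH1A3. In bulk RNA, fewer cells of a type and less RNA per cell cannot be told apart, for these genes and for all below.

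Interferon-stimulated genes formed the list with the highest median change. These genes are switched on by factors that bind the interferon-stimulated response element, among them STAT2 with IRF9, and by interferon regulatory factors that bind related sites. The element was searched as GAAANNGAA on both strands in RefSeq promoters (GRCh38.p14, 250 bases before to 50 after the start), which were found for 11271 tested genes. It occurred in 6.21% of these, in 6.55% of those called higher and in 5.46% of those called lower, but in 20 of 26 promoters of the tested interferon-stimulated effectors (76.9%). Of the 24 effectors that rose and had a promoter, 19 held a match, 13 held 2 or more and 5 held none. The 120 bases before the start are printed for the 3 effectors that rose most, because these genes lead the response described next. Each stretch runs 5′ to 3′ along the strand of its gene, with the matches in capitals.
IFI6 (chr1:27672193-27672312, minus strand): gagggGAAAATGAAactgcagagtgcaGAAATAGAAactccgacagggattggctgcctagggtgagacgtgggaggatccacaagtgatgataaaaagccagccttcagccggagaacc
IFI27 (chr14:94110616-94110735, plus strand): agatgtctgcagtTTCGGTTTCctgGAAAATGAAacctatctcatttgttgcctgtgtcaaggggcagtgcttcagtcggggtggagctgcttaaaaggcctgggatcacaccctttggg
IFIT1 (chr10:89392503-89392622, plus strand): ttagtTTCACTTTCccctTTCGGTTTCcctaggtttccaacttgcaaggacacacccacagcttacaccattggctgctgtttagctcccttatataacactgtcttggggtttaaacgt
In these stretches IFI6 holds both matches on its own strand, IFI27 one on each strand, and IFIT1 both on the opposite strand. In IFI6 they begin at -115 and -93 from the start, in IFI27 at -107 and -95 and in IFIT1 at -115 and -102. A match describes these letters only and says nothing of binding.

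IFI6, an interferon-induced mitochondrial and endoplasmic reticulum protein, stood at 86.9, 117 and 90.1 normalized reads in WT and 2376, 2825 and 2056 in mut rescue (24.7-fold, log2 change 3.49, SE 0.099, adjusted p = 1.64e-13). IFI27 was at 8.59, 3.78 and 9.49 in WT and 643, 775 and 559 in mut rescue. IFIT1, which binds RNA without the host cap mark, went from 91.6, 75.6 and 80.6 to 1413, 1229 and 1439 (16.5-fold). PARP9, whose promoter held no match, is a partner of the ubiquitin ligase DTX3L in interferon signalling and rose 4.72-fold from 254 ± 7.69 to 1202 ± 89.5. All 3 mut rescue libraries lay between the WT and the GAS41-KO libraries in each of these 4 genes. GAS41-KO had 5800.0 ± 273, 1925 ± 32.9, 2559 ± 156 and 2077 ± 35.1 in the same order, and wt rescue 99.2 ± 21.1, 8.5 ± 2.39, 59.8 ± 6.1 and 195 ± 13.

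Of 34 interferon-stimulated effectors 32 were tested, 28 rose and none fell, against 23.5% and 22.9% of all tested genes. The median change was 0.81, and 1.66 on the voom scale. MX2 and SAMD9L had too few reads to be tested, and OAS2, CMPK2, BST2 and TRIM22 were not called. BST2 (tetherin), which holds budding virus at the cell surface, had the most reads of these 4 and stood at 95.5, 85 and 65.5 in WT and 92.7, 98.8 and 89.5 in mut rescue, which overlap, against 312, 339.5 and 338 in GAS41-KO. Wt rescue had 7.97, 8.345 and 9.29 for BST2 and was called below WT (adjusted p = 4.18e-08 by limma). Compared with GAS41-KO, 29 of the 32 were lower in mut rescue and none was higher, where 9.0% of all tested genes were lower, 5.92% higher and 14.9% called in all (limma, adjusted p under 0.05). The median difference of mut rescue and GAS41-KO was -0.62 log2. The median change of the list over WT was 1.44 in GAS41-KO and -0.11 in wt rescue.

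**Figure D3:**
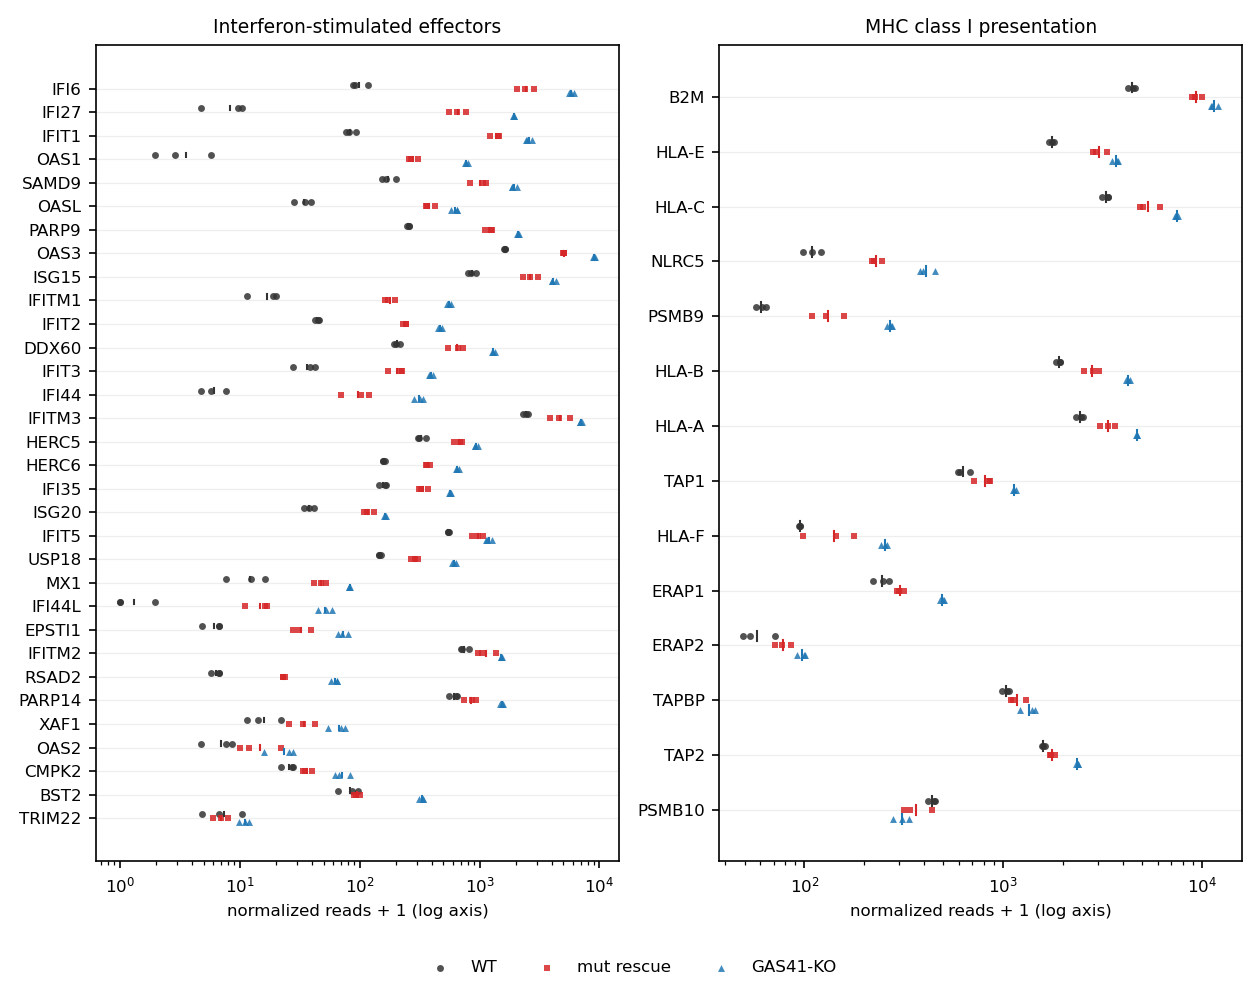
Normalized reads plus 1 (log axis) in each WT, mut rescue and GAS41-KO library for the 32 tested interferon-stimulated effectors and the 14 tested genes of MHC class I presentation, ordered by their change in mut rescue over WT. In most rows the mut rescue libraries lie between the other groups; BST2, at 89.5 to 98.8 normalized reads in mut rescue, overlaps WT.

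The genes that relay the interferon signal moved less evenly. Among 20 tested sensors and signalling genes 13 rose and 1 fell (median 0.26), and 9 were lower than in GAS41-KO. IRF9, which carries the DNA contact of the interferon-activated complex, rose from 145, 165 and 168 to 828, 882 and 821. Its partner STAT2 rose from 595, 545 and 578 to 1378, 1325 and 1294. IFIH1, the sensor MDA5 of long double-stranded RNA, rose 3.38-fold to 551 ± 24.5. The fall was that of TMEM173, which encodes the adaptor STING of cytosolic DNA sensing, from 350.4, 353 and 371 to 201, 192 and 170.0 (log2 change -0.63, adjusted p = 2.3e-07 by limma). Its level in GAS41-KO was 220.1 ± 2.16, and mut rescue did not differ from that beyond the threshold (adjusted p = 0.104).

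Genes of MHC class I presentation, which show peptides of the cell to T cells, gave 11 rises and 1 fall among 14 tested (median 0.37), and 11 were lower than in GAS41-KO. The response element was in 7 of 11 promoters of this list. B2M, the light chain of every class I molecule, was at 4496, 4236 and 4614 in WT and 9938, 8866 and 9169 in mut rescue. HLA-E rose 1.72-fold to 3012 ± 265, HLA-C 1.63-fold to 5348 ± 707 and NLRC5, the transactivator of class I genes, 2.1-fold to 228 ± 13.3. HLA class I genes resemble each other in sequence, and how their shared reads were counted is not given in the sources used here, so their single values are uncertain. PSMB10, an immunoproteasome subunit, was called lower at 364 ± 65.8 against 439 ± 19.3, but its groups overlap and its adjusted p of 0.0457 rose to as much as 0.194 with a library left out.

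NF-kB targets did not move as a group. There were 3 rises and 3 falls among 12 tested (median -0.08). The inhibitor gene NFKBIA rose from 480.4 ± 21.4 to 795 ± 35.4 and the cytokine gene LIF from 1895 ± 47.8 to 2315 ± 68.8. The early response gene IER3 fell from 5406, 5441 and 5342 to 2355, 2729 and 2378, and TNFAIP3, which encodes the ubiquitin-editing inhibitor A20, from 106 ± 5.82 to 65.7 ± 3.35.

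Genes of epithelial junctions and of the epithelial surface fell, while keratins rose. Epithelial cells are held together by adherens and tight junctions, and grainyhead, ELF and OVOL factors and ESRP splicing factors maintain their gene expression. Among 33 tested genes of junctions, polarity and surface 24 fell and 2 rose, with a median of -0.61, the lowest of the 39 lists. Besides the genes above, EPCAM, an adhesion molecule of simple epithelia, fell from 7876, 7187 and 7446 to 1834, 1511 and 1666. The members that rose were EPS8L2, an actin regulator, from 1136 ± 26.6 to 1641 ± 193, and JUP, the plakoglobin of desmosomes and adherens junctions, from 3828 ± 155 to 5023 ± 626. Against GAS41-KO, 12 members were higher and 4 lower in mut rescue.

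Epithelial transcription and splicing factors gave 8 falls and 4 rises among 17 tested, with a median of -0.14, and of -0.21 without mut rescue replicate 2. ELF3 fell from 951, 989.7 and 953 to 248, 277 and 250.5 and OVOL1 from 165 ± 20.5 to 29 ± 3.57. In the other direction TFAP2C, an AP-2 factor of ectoderm and trophoblast, rose from 139, 123 and 112 to 446, 406 and 412 and KLF5, a factor of proliferating crypt cells, from 826 ± 32.1 to 1319 ± 29.8. EHF, an ETS factor of epithelia, was not called, at 2946, 2663 and 2715 in WT and 2685, 2237 and 2689 in mut rescue (adjusted p = 0.365), while GAS41-KO had 1494, 1406 and 1467. The site AACNGGTT of grainyhead factors, searched on both strands, was in 1 of 22 promoters of the junction list (4.55%) and in 1.41% of all. It was in 1.35% of genes called higher and in 1.29% of those called lower. With 1 promoter, the share of the list cannot be set against these.

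Keratins, the intermediate filaments of epithelia, went the other way. Of 12 tested 8 rose and 1 fell (median 0.54, and 0.93 on the voom scale). The median change of the list over WT was 0.13 in GAS41-KO and 0.34 in wt rescue. Against GAS41-KO, 4 members were higher and 2 lower in mut rescue. KRT23 went from 70.6, 81.2 and 72.1 to 645, 693 and 548, KRT20, a marker of differentiated gut epithelium, from 16.5 ± 2.46 to 95.4 ± 9.52, and KRT80 from 97.1 ± 9.37 to 241 ± 37. KRT15, a keratin of basal cells, fell from 187 ± 15.6 to 87.7 ± 10.4. With only genes of at least 100 normalized reads on average, 4 keratins were called higher, because fewer members were tested. The intestinal differentiation list had 4 tested genes of 20, with KRT20 and the mucin gene MUC2 (2.85 ± 0.953 to 10.4 ± 4.22) called higher, the latter with an adjusted p of up to 0.072 when a library was left out.

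Genes of mesenchymal cells and matrix rose more often than they fell. Of 27 tested 15 rose and 4 fell, with a median of 0.28 on the deposited scale and 0.54 on the voom scale. VIM, the intermediate filament vimentin, stood at 42, 27.4 and 30.4 in WT and at 289, 290.4 and 291 in mut rescue. SPARC, a collagen-binding matrix protein, rose 4.25-fold to 305 ± 16.6, the laminin chain gene LAMB1 2.32-fold to 3426 ± 135 and the transglutaminase gene TGM2 3.68-fold to 1039.9 ± 99.5. TWIST1, a factor that drives mesenchymal change, fell from 47.7, 56.7 and 60.7 to 17, 19 and 19.1, and LAMC1, a laminin chain, from 3102 ± 115 to 2157 ± 29, so these falls run against the direction of the list. Compared with GAS41-KO, 17 members were lower in mut rescue and none higher. TGM2 had 3508 ± 88.6 in GAS41-KO, and its difference from mut rescue was -1.62 log2 (adjusted p = 3.33e-10).

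Targets of YAP and TEAD, which answer to cell density and stiffness, were listed together with YAP1, WWTR1 and TEAD genes themselves. This list gave 9 rises and 3 falls among 15 tested (median 0.39). ANKRD1 went from 0.955, 1.89 and 2.85 to 62.8, 50.9 and 78.5. WWTR1, which encodes the coactivator TAZ, rose 1.67-fold to 2285 ± 202 and TEAD1 1.7-fold to 5806 ± 631. YAP1 itself fell from 2548 ± 95.5 to 2079 ± 257 and TEAD4 from 609 ± 5.04 to 450.5 ± 26.5.

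Targets of p53 rose while genes of DNA replication and division fell. CDKN1A, the p53 target that encodes the cell cycle inhibitor p21, stood at 3644, 3711 and 3804 normalized reads in WT and at 5702, 6325 and 5276 in mut rescue (1.55-fold, log2 change 0.61, SE 0.068, adjusted p = 2.3e-06). All mut rescue libraries lay above all WT libraries. GAS41-KO had 4919.5, 5084 and 5056 and wt rescue 4512, 5064 and 4978, and mut rescue over GAS41-KO was not called (adjusted p = 0.0744). Among 32 tested p53 targets 24 rose and 1 fell (median 0.46), and 6 were higher and none lower than in GAS41-KO. TP53INP1, which promotes p53 phosphorylation and autophagy, rose from 425, 423 and 449.7 to 1397, 1265 and 1557, the antiproliferative gene BTG2 from 456 ± 15.8 to 991 ± 51.8 and SESN1, a sestrin, from 282 ± 11.4 to 496 ± 33.8. GADD45A, a stress gene of growth arrest, was called lower at 638 ± 33.1 against 772 ± 27.6, with an adjusted p of up to 0.068 when a library was left out.

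CDK inhibitor genes gave 5 rises and 1 fall among 8, with a median of 0.28, and of 0.19 without mut rescue replicate 2. CDKN2B, which encodes p15, rose from 108 ± 12 to 199.7 ± 8.14, and CDKN1C, which encodes p57, fell from 79.4 ± 16.5 to 46.3 ± 11.7. CDKN3 also rose, but it is a phosphatase of CDKs that is made in dividing cells. In the BCL2 family, which sets the threshold for cell death at mitochondria, 7 of 15 rose and 4 fell (median 0.14). BCL2, the survival member, stood at 100.2, 95.4 and 88.2 in WT and 13, 4.99 and 9.05 in mut rescue. The death effector BAX rose 1.74-fold to 1043 ± 156, and the BH3-only activators BBC3 (PUMA) and BCL2L11 (BIM) rose 1.74-fold and 1.55-fold. HRK, another BH3-only gene, fell from 40.2 ± 7.04 to 16 ± 4.39.

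Genes of the G1/S transition and DNA replication fell in 29 of 33 cases and none rose, with a median of -0.41. PRIM1, the primase subunit that starts DNA strands, was at 1389, 1416 and 1502 in WT and 786, 653 and 732 in mut rescue. The cell cycle factor E2F2 fell 2.03-fold to 496 ± 34.2, the clamp loader RFC5 1.73-fold to 1240.0 ± 44.2 and the helicase subunit MCM3 1.56-fold to 5314 ± 239.7. Genes of G2/M and mitosis had 20 falls and 1 rise among 30 (median -0.32). CCNA2, cyclin A2, fell from 2927 ± 105 to 1930.5 ± 76.5, the checkpoint genes BUB1B and MAD2L1 to 2219 ± 144 and 2074 ± 144, and the centromere histone CENPA to 298 ± 21. The rise was that of the phosphatase CDC25B (adjusted p = 0.0486, and up to 0.178 with a library left out). DNA repair genes gave 18 falls and no rise among 33 (median -0.32). FANCD2, of Fanconi crosslink repair, fell from 2045, 1893 and 1941 to 1073, 946 and 1147, and EXO1, CHEK1 and BLM fell 1.56-fold, 1.44-fold and 1.61-fold. Against GAS41-KO, no member of these 3 lists was lower in mut rescue, and 1 replication gene and 2 repair genes were higher.

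MYC, the factor that drives growth genes, was not called in mut rescue over WT. It stood at 5716, 5814 and 5908 in WT and at 4872, 5951 and 4833 in mut rescue, with replicate 2 at the level of WT (adjusted p = 0.122). Against GAS41-KO, at 3572, 3645 and 3669, mut rescue was higher by 0.50 log2 (adjusted p = 0.000517), and wt rescue had 6531, 7833 and 7549. In the MYC, MAX and MXD network 4 of 13 rose and 4 fell. MXD4 and MXD1, which take the place of MYC on MAX and repress, rose from 269.5 ± 33.1 to 1229 ± 217 and from 111 ± 17.8 to 250.1 ± 15.7. MYCL fell from 128 ± 3.78 to 56 ± 8.47, and MAX rose from 757 ± 22.9 to 959 ± 44.3.

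Ribosome biogenesis genes, many of them MYC targets, stood between WT and GAS41-KO. Of 32 tested 16 fell and 1 rose compared with WT (median -0.17), and 24 were higher and none lower than in GAS41-KO (median 0.28). The E-box CACGTG bound by MYC and MAX was in 12 of 26 of their promoters (46.2%), in 9.95% of all, in 8.2% of genes called higher and in 11.9% of those called lower. UTP20, of the small subunit processome, was at 1607, 1575 and 1658 in WT, 936, 857 and 1059 in mut rescue and 740.3, 717 and 781 in GAS41-KO. WDR12 fell from 1808 ± 48.8 to 1212 ± 51.4 and MRTO4 from 2083 ± 63.6 to 1322 ± 94.3, both factors of the large subunit. RRP12, an export factor of ribosomal subunits, rose from 1815 ± 62.5 to 2174 ± 172. Cytosolic ribosomal proteins showed 11 rises and no fall among 30 (median 0.14), or 36.7% called, and the median was 0.084 and 0.24 without mut rescue replicates 2 and 3. Their medians in mut rescue replicates 1, 2 and 3 were 0.18, 0.31 and -0.0032 from the WT mean, and 3, 2 and 19 members rose without mut rescue replicates 1, 2 and 3. Without WT replicates 1, 2 and 3 the count was 3, 4 and 5. Ribosomal protein genes also have many near-identical pseudogenes, so their values are uncertain.

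Genes of sterol synthesis and of the response to amino acid shortage fell more often than they rose. In sterol synthesis, the SREBP-driven route to cholesterol, 21 of 26 fell and 1 rose (median -0.45). INSIG1, the sterol sensor that retains SREBP, was at 1379, 1336 and 1421 in WT and 681, 665 and 645 in mut rescue. FDFT1, squalene synthase, fell 2.25-fold to 1164 ± 116 and HMGCS1, which makes HMG-CoA, 1.88-fold to 1169.9 ± 87.8. TM7SF2, a sterol reductase, rose from 251, 278 and 305 to 732, 884 and 679, against the direction of its pathway. The sterol element TCACNCCAC was in 1 of 19 promoters of the list (5.26%) and in 1.05% of all. It was in 0.786% of genes called higher and in 1.29% of those called lower, and 1 promoter is too few for a comparison.

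Genes of the ATF4 response to amino acid shortage gave 13 falls and 1 rise among 22 (median -0.40). SLC7A5, a transporter of large neutral amino acids, fell 2.27-fold to 6846 ± 569, STC2 2.29-fold to 1089.6 ± 37.9 and the pseudokinase TRIB3 2.45-fold to 503 ± 69.2. CHAC1, which degrades glutathione, fell from 352 ± 14 to 120.0 ± 14. ATF3 rose from 437, 405 and 434 to 592, 562 and 572, and GAS41-KO had 376, 380.1 and 386. Chaperones of the endoplasmic reticulum had 6 rises and no fall among 19, or 31.6% called (median 0.08), with DNAJB9 at 571 ± 24.4 against 282 ± 5.35 in WT, and 3 rises without WT replicate 2. Heat shock chaperones had 3 rises and 5 falls among 16, and 1, 3 and 2 falls were left without WT replicates 1, 2 and 3, and 2 and 3 without mut rescue replicates 2 and 3. The mitochondrial chaperones HSPD1 and HSPA9 fell from 46301 ± 1188 to 40517 ± 2399 and from 15309.6 ± 382 to 13499.8 ± 634, and the cytosolic HSPA4 from 8075 ± 243 to 7097 ± 306. These 3 calls were lost with WT replicate 1 left out, at adjusted p of 0.054, 0.0704 and 0.0901. DNAJA1, a cochaperone of HSP70, rose from 5870.3 ± 163 to 7614 ± 280.1.

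Glycolysis and hypoxia genes were split, with 9 rises and 8 falls among 28 (median -0.01). Beside the rise of SLC2A1, the neuronal type glucose transporter SLC2A3 rose from 30.1 ± 6.27 to 108 ± 12.1. HK2, the hexokinase that traps glucose, fell from 2057, 2179.6 and 2032 to 967, 982 and 1022, and the peptide hormone gene ADM from 511 ± 3.2 to 139.7 ± 15. Oxidative phosphorylation genes had 8 falls and 2 rises among 26 (median -0.08), or 38.5% called against 46.3% of all tested genes. The complex III core gene UQCRC2 went down from 4546 ± 96.2 to 3381 ± 122 and the complex I gene NDUFA2 up to 852 ± 138 from 633 ± 27.1. In the NRF2 antioxidant list 6 of 20 fell and 2 rose (median -0.08), or 40% called, also below the share of all tested genes. SLC7A11, the cystine importer, fell from 2701, 2538 and 2717 to 956, 839 and 1146, and NQO1 and TXNRD1 fell to 4052 ± 239.7 and 7418 ± 309 from 6199.5 ± 200.2 and 11288 ± 306. Lysosomal genes gave 9 rises and 1 fall among 25, or 40.0% called, with a median of 0.10, and of 0.051 without mut rescue replicate 2. The protease gene CTSD rose 1.94-fold to 3344 ± 602, the proton pump subunit ATP6V0D1 1.9-fold and the sialidase NEU1 1.91-fold, while the protease gene CTSH fell from 165 ± 0.626 to 71.3 ± 16.5.

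In the AP-1 and ERK feedback list 12 of 24 rose and 5 fell (median 0.23). JUN was at 259.7, 271 and 227 in WT, 1041, 1224 and 1033 in mut rescue and 727, 744 and 714 in GAS41-KO. Its partner FOSL2 rose 2.87-fold to 1079.9 ± 83.8 and the ERK phosphatase gene DUSP4 2.83-fold to 6569 ± 267. ETV4, an ETS factor downstream of ERK, fell from 1053, 1023 and 993 to 401, 479 and 380.3, and the feedback inhibitor SPRY1 from 49.1 ± 5.12 to 9 ± 2.62.

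BMP pathway genes had 8 rises and 2 falls among 16 (median 0.17). With the ligand BMP4, the target genes MSX1, MSX2 and ID3 rose 2.64-fold, 3.36-fold and 2.6-fold, to 2652 ± 239, 407 ± 9.58 and 1832 ± 259. Of the SMAD proteins that carry the signal, SMAD9 fell from 64.2 ± 7.51 to 30.7 ± 7.87. Wnt targets gave 5 rises and 6 falls among 17 (median -0.08), and 3 falls without WT replicate 2 or mut rescue replicate 1. This is 64.7% called, with rises and falls in similar number. AXIN2, a feedback inhibitor and common readout of the pathway, rose from 178, 187 and 173 to 815, 862 and 841, and DKK1, a secreted inhibitor, 2.25-fold to 14093 ± 793. RNF43, a ligase that removes Wnt receptors, fell from 807, 858 and 796 to 606, 591 and 609.6, while GAS41-KO stood lower at 311, 346 and 330.3 (difference 0.67, adjusted p = 8.22e-07).

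Semaphorins, plexins and neuropilins had 8 rises and 4 falls among 23 (median 0.02), or 52.2% called against 46.3% of all tested genes. After SEMA3A, SEMA3B rose 4.22-fold to 484 ± 45 and SEMA3C 2.55-fold to 715 ± 76.4, while SEMA4G fell from 345 ± 9.46 to 191 ± 11 and the receptor gene NRP1 from 69.3 ± 4.41 to 31 ± 2.59. Ephrins and Eph receptors gave 3 rises and 5 falls among 14 (median -0.05), or 57.1% called, with EPHA1 down 3.37-fold to 99.4 ± 3.82 and EPHA2 up 1.57-fold to 4529 ± 549. ERBB receptors and ligands had 8 falls and 3 rises among 13, with a median of -0.23 and of -0.60 on the voom scale, and 5 falls without WT replicate 1. EREG, the ligand epiregulin, was at 14402, 12503 and 14306 in WT and 4873, 3989 and 5969 in mut rescue. ERBB3 fell to 526 ± 18.5 and LRIG1, which degrades these receptors, to 44.3 ± 0.516, while EGF rose from 14.2 ± 4.12 to 54.4 ± 8.83 and ERBB2 from 1355 ± 43.4 to 1739 ± 140.3.

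Lists of chromatin genes around GAS41 were called at shares near the 46.3% of all tested genes, at 52.2% for TIP60 and SRCAP, 45.8% for SIN3-HDAC and NCoR and 55.6% for enzymes of histone H3 lysine 27. Of the other YEATS readers, MLLT3 (AF9) rose from 150.0 ± 13.8 to 228 ± 34, and YEATS2 and MLLT1 were not called. In the TIP60 and SRCAP complexes 8 of 23 rose, YEATS4 included, and 4 fell (median 0.09). The bromodomain subunit BRD8 rose 1.32-fold and EPC1 1.4-fold, and the actin-related subunit ACTL6A fell 1.36-fold. H2AFZ, which encodes the variant H2A.Z that these complexes handle, fell from 13318, 13314 and 13642 to 10271, 10428 and 9453. SIN3-HDAC and NCoR corepressors gave 5 rises and 6 falls among 24 (median 0.05), with the deacetylase HDAC2 down from 4638, 4444 and 4385 to 2536, 2391 and 2674 and GPS2 up to 1207 ± 123 from 897 ± 29.5. Enzymes that acylate or methylate lysine 27 of histone H3, or remove these marks, had 5 rises and 5 falls among 18 (median 0.04). The deacetylase SIRT2 and the acetyltransferase KAT2B rose 1.8-fold and 1.9-fold, and the related acetyltransferase KAT2A and the acyl-CoA synthetase ACSS2 fell 1.41-fold and 1.33-fold.

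Histone genes gave 9 rises and 4 falls among 17 tested, with a median of 0.33, and of 0.16 without mut rescue replicate 2. HIST1H2BD was at 23.9, 29.3 and 37 in WT, 233, 236 and 202 in mut rescue and 135, 111 and 155 in GAS41-KO. HIST1H2AC rose 5.16-fold to 131 ± 17.7 and the linker histone gene HIST1H1C 3.59-fold to 423 ± 46.8. The falls include both macroH2A genes, H2AFY2 from 1051 ± 27.5 to 477 ± 63.7 and H2AFY from 3984 ± 55.7 to 3033 ± 147. Poly-A selection misses most RNA of the replication-dependent histones, and the copies of these genes are alike, so their levels are uncertain.

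**Figure D4:**
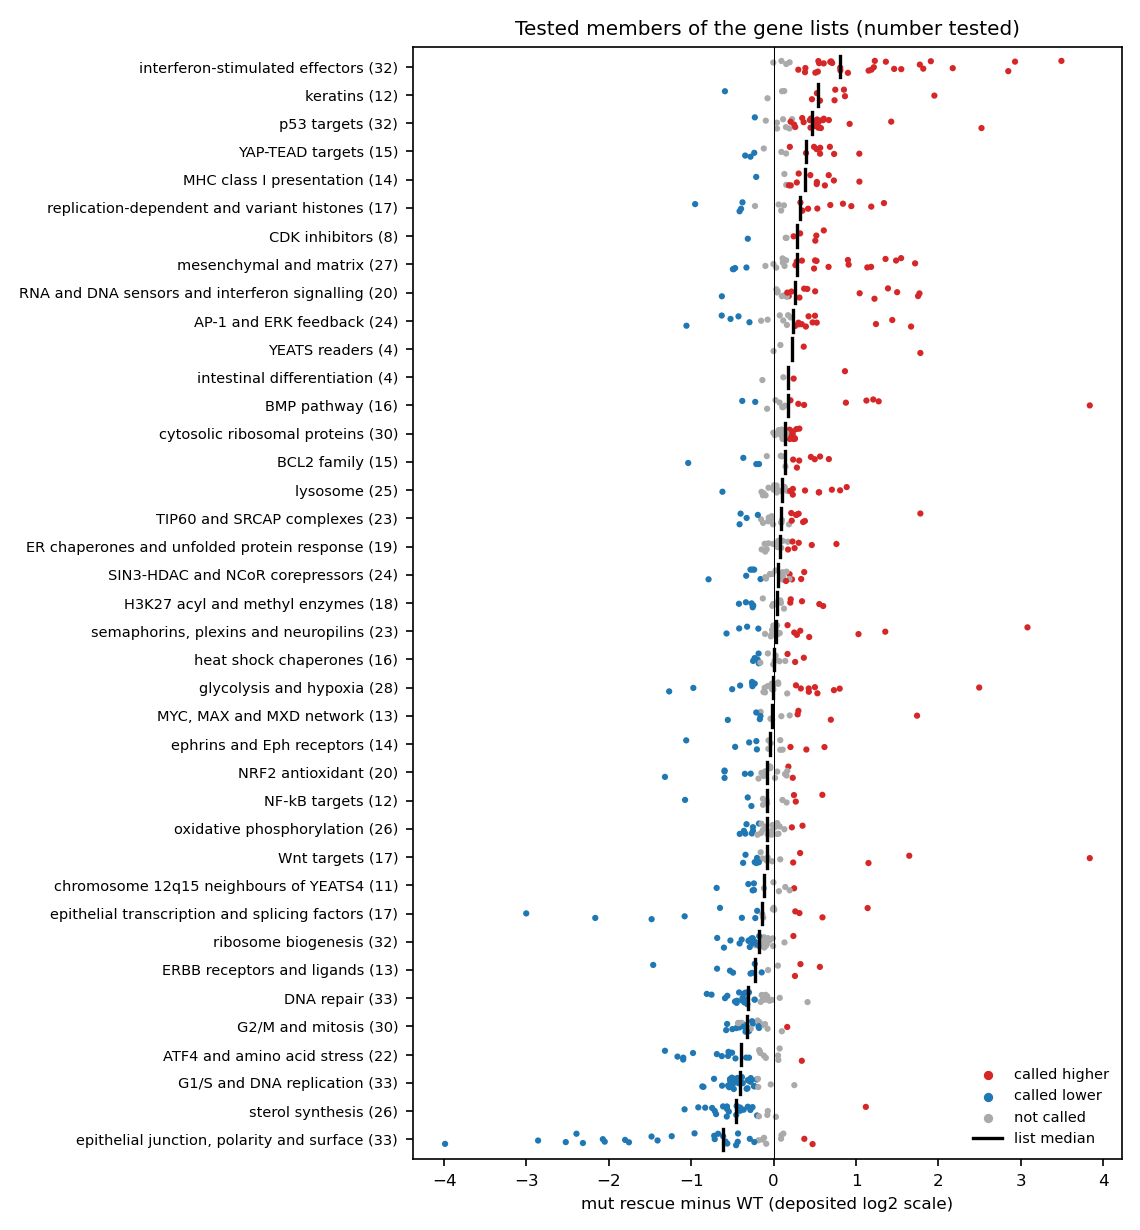
Change in mut rescue over WT (horizontal axis, difference of deposited log2 values) of every tested member of the 39 gene lists, one row per list with the number tested, ordered by the list median (black bar). Red members were called higher, blue lower and grey not called. Interferon-stimulated effectors stand at one end with a median of 0.81 and epithelial junction genes at the other with -0.61. The lists were chosen with earlier results of these data known.

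Against GAS41-KO, 2164 genes differed in mut rescue, 858 higher and 1306 lower, and 3 were higher and 22 lower by 1 log2 or more. Both comparisons use the same mut rescue libraries, so a chance deviation of these libraries enters both. Of the 176 genes that rose by 1 log2 or more over WT, 28 stood above and 76 below GAS41-KO and 72 were not called against it. The same genes had median changes over WT of 1.36 in mut rescue, 1.59 in GAS41-KO and 0.05 in wt rescue. Of the 132 that fell by that much, 37 stood below and 21 above GAS41-KO and 74 were not called, with medians of -1.28, -1.25 and -0.40. The count of higher genes depended on single libraries: it was 485 without mut rescue replicate 1, 481, 427 and 415 without GAS41-KO replicates 1, 2 and 3, and 1427 without the wt rescue group. The count of lower genes was 868 without GAS41-KO replicate 3. Of all 3402 rises over WT, 244 were called above GAS41-KO as well, 517 were called below it and 2641 were not called against it. Of all 3316 falls, 402 were called below GAS41-KO as well, 272 were called above it and 2642 were not called.

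The 8 genes that stood farthest above both groups were YEATS4, AQP3, PTP4A1, LAMB3, CYP24A1, KRT80, KRT7 and KRT81. AQP3, a water and glycerol channel, stood at 116, 139.8 and 143 in WT, 258, 267 and 241 in GAS41-KO and 595, 638 and 547 in mut rescue, and wt rescue had 148, 145 and 136. LAMB3, a laminin chain of epithelial basement membranes, was at 368, 381 and 395 in WT, 288, 319.7 and 350.3 in GAS41-KO and 763, 833 and 789.7 in mut rescue, with 973, 962 and 1026 in wt rescue. CYP24A1, which degrades active vitamin D, was at 3580.0, 3421 and 3498 in WT, 5331, 5471 and 5566 in GAS41-KO and 9536, 8944 and 9539 in mut rescue. The phosphatase gene PTP4A1 rose 1.83-fold over WT to 10764 ± 1305, with 5647 ± 249 in GAS41-KO. Keratins KRT7, KRT80 and KRT81 were at 135 ± 29.5, 241 ± 37 and 95.7 ± 11 in mut rescue, and at 42.1 ± 11.6, 94.7 ± 9.19 and 23.2 ± 2.02 in GAS41-KO. Wt rescue was also called above WT in all of these but AQP3, with means of 528 for KRT80, 94.3 for KRT7, 46.4 for KRT81, 4997 for CYP24A1 and 7327 for PTP4A1. KRT81 has near-identical neighbours among the hair keratins, so its reads are uncertain.

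The 8 genes that stood farthest below both groups were NRIP1, SOX4, DHRS3, ZNF268, LRRCC1, KCTD15, MPP7 and ZNF704. NRIP1, a corepressor of nuclear receptors, stood at 1259, 1105 and 1141 in WT, 825, 830.5 and 863 in GAS41-KO and 329, 310.3 and 354 in mut rescue. In wt rescue its libraries spread from low to high, at 769.9, 339 and 405. SOX4, a factor of progenitor cells, was at 2600.5, 2484 and 2495 in WT, 3029, 2898 and 2944 in GAS41-KO, 1364, 1409.9 and 1601 in mut rescue and 1523, 1741 and 1703 in wt rescue. GAS41-KO thus lay above WT, and both rescue groups below it. DHRS3, which reduces retinaldehyde, was at 999, 1028 and 1008 in WT, 482, 540.5 and 487 in GAS41-KO and 245, 285 and 230.4 in mut rescue. The zinc finger genes ZNF704 and ZNF268 fell 7.16-fold and 5.53-fold compared with WT, LRRCC1, a centrosome protein, 6.43-fold, KCTD15 2.34-fold and the polarity scaffold MPP7 2.11-fold. Wt rescue was also called below WT in NRIP1, SOX4, ZNF704, ZNF268, LRRCC1 and MPP7, with means of 353, 100.5, 219 and 1225 in the last 4. In DHRS3 it was called above WT, at 1349, and in KCTD15 it was not called, at 564.

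**Figure D5:**
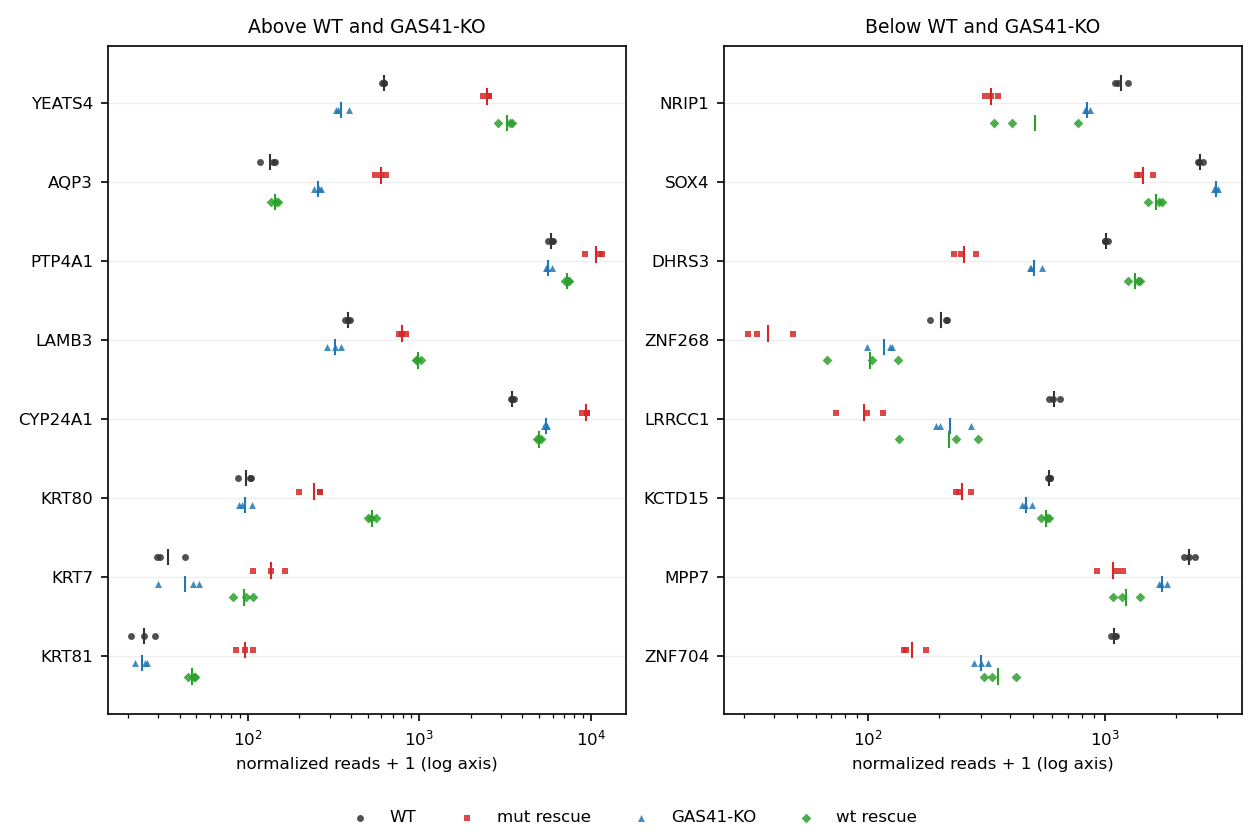
Normalized reads plus 1 (log axis) in each library for the 8 genes that stood above and the 8 that stood below both WT and GAS41-KO in mut rescue; points are libraries and short bars are group means. YEATS4 lies at 2358 to 2551 normalized reads in mut rescue, above all WT and GAS41-KO libraries, and NRIP1 shows the spread of the wt rescue libraries.

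A smaller set changed in the knockout and was not called in mut rescue over WT. Compared with WT, 3772 genes were called higher and 3852 lower in GAS41-KO. Of these, 340 that GAS41-KO raised and 291 that it lowered were in this set, each called the opposite way in mut rescue over GAS41-KO. Not being called does not show that mut rescue and WT were alike. BTBD11 stood at 119, 134 and 108 in WT, 139.6, 153 and 124 in mut rescue and 434, 462 and 446 in GAS41-KO. MMP14, a membrane protease that cleaves collagen, was at 167, 178 and 179 in WT, 169.5, 203 and 172 in mut rescue and 404, 372 and 410.4 in GAS41-KO. EHBP1, which links endocytosis to actin, and the matrix protease ADAMTS14 had 1136 ± 78.4 and 389.8 ± 31.1 in mut rescue, against 2416 ± 11 and 757 ± 56.1 in GAS41-KO. Among the genes that GAS41-KO lowered, besides EHF and MYC, F3 (tissue factor, which starts clotting) was at 971, 893 and 916 in WT, 1038, 924 and 1036 in mut rescue and 666, 616 and 618 in GAS41-KO. DDIT4, an inhibitor of mTORC1, was at 3048, 3031 and 3166 in WT, 2763, 3092 and 2641 in mut rescue and 2027, 1927 and 1954 in GAS41-KO. PRKAA2, a catalytic subunit of the energy sensor AMPK, had 417 ± 87.5 in mut rescue and 239 ± 17.3 in GAS41-KO. This difference (adjusted p = 0.0113 by limma) was lost without mut rescue replicate 3 or GAS41-KO replicate 3 (adjusted p up to 0.0529). BST2, described above, is also among the genes that GAS41-KO raised. Wt rescue was called above WT in MMP14, F3 and MYC and below WT in BST2, EHBP1, ADAMTS14, EHF, DDIT4 and PRKAA2. In BTBD11 it was not called. Its means were 313.5 for MMP14, 1756 for F3, 827 for EHBP1, 1437 for DDIT4 and 120.1 for BTBD11.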

How the data were processed

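Poly-A RNA of 12 libraries, 3 per group, was analysed, and the other samples of the series were not used here. Per the submitters' processing notes, the authors used DESeq2, HTSeq, TopHat2 2.1.0, Bowtie 1.0.1, Trimmomatic 0.36 and CASAVA 1.4. The notes name hg19 and mm9 as builds and give none of these a role or an order. The annotation and the strand setting of the counting are not given in the sources used here.

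The authors deposited log2 expression after variance stabilization, in a table named as counts. Inverting that scale returned whole reads within 0.01 for 100% of values, and dividing by the authors' size factors, recovered the same way, gives the normalized reads printed here. All genes with at least 10 reads in at least 3 of the 12 libraries were fitted on the deposited log2 values with limma 3.58.1 in R 4.3.3, with a trend in the prior variance, all 4 groups in the fit and no covariate. P-values were adjusted by Benjamini and Hochberg over all tested genes, with a threshold of 0.05. The fit was tested on simulated data. Tables and plots were made with Python 3.11.15 and matplotlib 3.10.9.

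The text names YEATS4, CDKN1A and MYC, and the 12 largest rises and falls with a mean of at least 50 normalized reads and groups that do not overlap. It also names the 8 genes farthest above and below both WT and GAS41-KO, the 5 genes of each sign that changed in GAS41-KO, differed from it in mut rescue and were not called in mut rescue over WT, and from each of 39 lists up to 4 called genes with the smallest p and up to 2 against the list's direction. The comparison and the lists were chosen with earlier results of these data known. Genes outside the rule were chosen after their values were seen, apart from the cell type markers. Alternatives left out each library or the wt rescue group, changed the filter, scale, normalization or prior variance, fitted only the groups compared, or added the replicate number as a block. A gene that the rule names is not reported here.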

Additional observations from a re-analysis of the deposited data

How the results depend on the processing

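Under other settings 660 values were recomputed for counts of genes and for YEATS4 over WT. Of these, 626 stayed the same, which for a count means within 1.5 times. Of 6346 values of single genes, 6109 kept their side of the threshold. None changed direction where the main or the other fit called the gene, and changes of direction where neither did were not counted. On the voom scale, 720 genes rose and 535 fell by 1 log2 or more in mut rescue over WT, and 733 and 519 with upper-quartile factors, against 176 and 132 on the deposited scale. With a mean of at least 100 normalized reads, which leaves fewer genes tested, 5 epithelial factors (8 otherwise), 2 ephrin genes (5) and 3 ERBB genes (8) fell, and 4 keratins (8) and 5 histone genes (9) rose. Without the wt rescue group, 1427 genes were higher than in GAS41-KO (858); the cause was not tested. Leaving out 1 library at a time gave 2 to 19 rising ribosomal proteins (11), 3 to 5 endoplasmic reticulum chaperones (6), 1 to 4 falling heat shock chaperones (5), 3 to 7 falling Wnt targets (6) and 5 to 8 falling ERBB genes (8). For mut rescue over GAS41-KO it gave 1283 to 2374 called genes (2164), 415 to 887 higher (858) and 868 to 1487 lower (1306). Same-numbered WT and mut rescue libraries had correlations of 0.22, 0.44 and 0.025 in their deviations from the group means, and WT replicate 1 correlated best with mut rescue replicate 3 (0.35), so the numbers were not taken to pair the samples. With the replicate number as a block, 3523 genes were higher and 3502 lower than in WT (3402 and 3316).

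Depth was 16857982 to 18546135 reads in the 12 libraries, and 3 libraries per group limit the precision. Genes with few reads have compressed changes on the deposited scale.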
